A study of Mus musculus with 9 samples.

Results

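The genes examined are 10 that encode the structural proteins of the synaptonemal complex, the meiotic HORMA domain proteins and the enzyme that acts on the latter: Sycp1, Sycp2, Sycp3, Syce1, Syce2, Syce3, Tex12, Hormad1, Hormad2 and Trip13. They were taken by gene symbol from a table of 22337 genes, and all 10 were found and passed the filter on low counts in every comparison. RNA was sequenced from whole testes of 9 mice at 3 weeks of age, with 3 wild-type (WT-WT), 3 Piwil4WT/R264W (WT-KI) and 3 Piwil4R264W/R264W (KI-KI) animals. The knock-in allele, made with CRISPR-Cas9 in C57BL/6 zygotes, replaces an arginine of PIWIL4 with tryptophan in every cell of the body, and PIWIL4 is a PIWI protein that silences transposons in fetal and neonatal germ cells. The study asked how this change affects the first wave of spermatogenesis.

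In meiotic prophase each pair of sister chromatids is organised along a protein axis. SYCP2 and SYCP3 build that axis, which becomes the lateral element of the synaptonemal complex, and HORMAD1 and HORMAD2 coat it while homologous chromosomes are still apart. SYCP1 forms the transverse filaments that zip the axes of homologous chromosomes together, and SYCE1, SYCE2, SYCE3 and TEX12 form the central element where the filaments meet. TRIP13 is an ATPase that remodels HORMA domain proteins and is needed for their removal from synapsed axes. In the juvenile mouse testis germ cells enter meiosis in a first, nearly synchronous wave, so the mixture of cells in a whole testis depends on how far the wave has moved from spermatocytes towards round spermatids.

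The libraries held 18 to 24.3 M estimated counts each. The progress of the wave was followed with a round spermatid score, the mean log2 CPM (counts scaled to library size, by TMM) of 20 round spermatid genes, none of which is among the genes examined. The score of the wild-type testes lay between 1.85 and 6.22, that of the Piwil4WT/R264W testes between 1.3 and 5.28 and that of the Piwil4R264W/R264W testes between 2.81 and 6.05, and the lowest Piwil4R264W/R264W testis ranked 3 of 9. Every gene of the spermatogonial, pachytene, Sertoli and Leydig lists was detected in at least 1 testis. Piwil4 itself was low, at 1.59 to 1.76 CPM in wild-type, 1.12 to 2.10 CPM in Piwil4WT/R264W and 1.02 to 1.39 CPM in Piwil4R264W/R264W testes, and a count per gene does not tell its alleles apart. In whole testes, fewer cells of a type, less RNA per cell and more RNA from other cells cannot be told apart. A fall in CPM is relative to the other RNA of the library.

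All 10 genes were transcribed in every testis, over a wide range of levels. On the FPKM scale, which corrects for gene length, the lateral element gene Sycp3 was the most abundant with a mean of 307.5 ± 53.2 (SD, n = 9). The central element gene Syce1 followed with 227.9 ± 13.8, Hormad1 with 211.1 ± 41.1, the transverse filament gene Sycp1 with 199.6 ± 40.2 and Sycp2 with 132.3 ± 18.7 FPKM (SD, n = 9 each). A lower set held the other central element genes, Syce3 (37.7 ± 4.35), Tex12 (35.01 ± 5.46) and Syce2 (29.1 ± 3.59), together with Hormad2 (24.0 ± 3.995), and Trip13 was lowest at 7.23 ± 0.964 FPKM (SD, n = 9 each). Within a testis, Sycp1 was above Sycp2 in 9 of 9 libraries, Sycp3 above Syce1 in 8 and Hormad1 above Sycp1 in 8. Neighbours whose order changed more often were Syce1 and Hormad1 (6 of 9) and Syce3 and Tex12 (5 of 9), and the mean gap of each of these pairs, 16.8 and 2.72 FPKM, was below the SD of that gap over the 9 testes, 53.1 and 6.44 FPKM. The 5 central and transverse genes thus did not share 1 level, and the HORMA pair differed, with Hormad1 above Hormad2 in all 9 testes. Counts per library ran from 278 to 454 for Trip13 and from 10982 to 19335 for Sycp2. The counts of Sycp3 were not whole numbers in any library, while those of the other 9 genes were whole in all. Together the 10 genes took between 0.199% and 0.299% of all counts.

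No gene of the set passed a test between genotypes, and only Syce2 and Trip13 separated a pair of genotypes without overlap. The lateral element gene Sycp2 had 782, 731 and 900 CPM in the wild-type testes, 655, 734 and 886 CPM in the Piwil4WT/R264W testes and 780, 787 and 628 CPM in the Piwil4R264W/R264W testes. The ranges of the genotypes overlapped. Sycp3, the other axis protein gene, had 324, 323 and 409 CPM in wild-type, 309, 382 and 424 CPM in Piwil4WT/R264W and 417, 370 and 279 CPM in Piwil4R264W/R264W testes. For Sycp3 the lowest and the highest testis of each genotype bracketed the means of the other genotypes.

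For the transverse filament gene Sycp1 the values were 554, 562 and 754 CPM in wild-type, 544, 716 and 753 CPM in Piwil4WT/R264W and 795, 675 and 472 CPM in Piwil4R264W/R264W testes. Both its lowest and its highest testis were Piwil4R264W/R264W animals, and its means were 623 ± 113, 671 ± 111 and 648 ± 163 CPM (SD, n = 3 each). Hormad1 had 261, 268 and 363 CPM in wild-type, 276, 327 and 364 CPM in Piwil4WT/R264W and 345, 320 and 221 CPM in Piwil4R264W/R264W testes. Its genotype means of 297 ± 57.3, 322 ± 44.3 and 295 ± 65.8 CPM (SD, n = 3 each) were closer to each other than the testes of any 1 genotype.

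**Figure D1:**
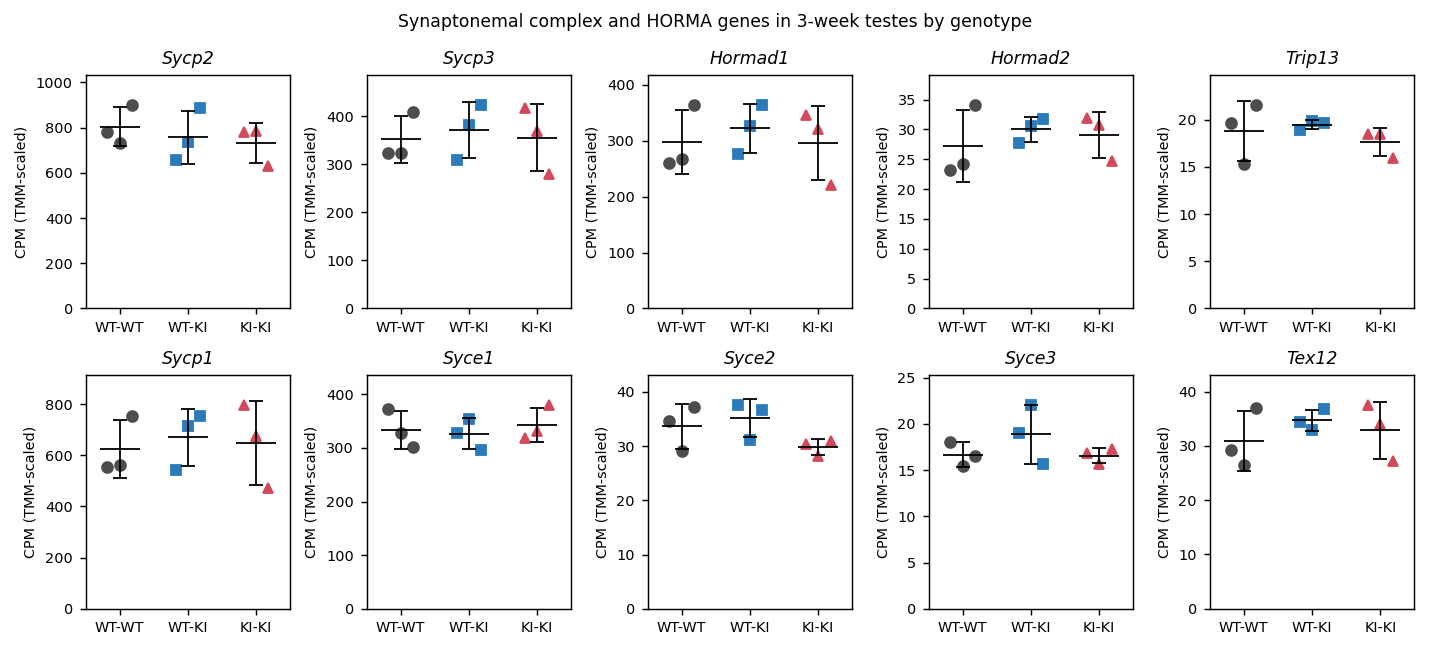
TMM-scaled CPM of the 10 genes (y axis, from 0) in each of the 9 testes, by genotype (x axis); each point is a testis, the horizontal bar the mean and the whiskers the SD (n = 3). The ranges of the 3 genotypes overlap in most panels; in Syce2 and Trip13 the KI-KI testes lie below all WT-KI testes.

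Between Piwil4R264W/R264W and wild-type testes the log2 fold changes of the 10 genes ran from -0.17 for Syce2 to 0.10 for Hormad2, with a median of 0.003 against -0.005 over all 15543 genes tested. By the quasi-likelihood test of edgeR, adjusted over all genes, 0 of the 10 genes had an adjusted p under 0.05 and 0 an unadjusted p under 0.05, where the shares over all genes were 0% and 1.26%. The smallest unadjusted p was 0.197, for Syce2 (n = 3 per genotype, edgeR). In 0 of the 10 genes did the 2 genotypes not overlap, against 5.69% of all genes. Of 15 Sertoli markers, 2 had an unadjusted p under 0.05 by edgeR in this comparison. Both were higher in Piwil4R264W/R264W testes (log2 fold changes of 0.56 for Rhox5 and 0.16 for Amhr2), as were Tsx (0.23), Inha (0.12), Amh (0.045) and Aard (0.03). Shbg (-0.28), Sox9 (-0.185), Dhh (-0.10), Wt1 (-0.073), Clu (-0.057), Gata4 (-0.05), Rhox8 (-0.035), Cldn11 (-0.01) and Fshr (-0.005) were lower. The summed Sertoli markers overlapped, at 2220 to 2480 CPM in Piwil4R264W/R264W and 1940 to 2550 CPM in wild-type testes. The part of Sertoli cells in the values of the 10 genes was not tested. The 95% intervals of the fold changes reached from -0.50 for Hormad1 to 0.58 for Sycp1 on the log2 scale, and those of Syce1 (-0.23 to 0.30) and Syce3 (-0.29 to 0.27) were among the narrower.

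Against Piwil4WT/R264W testes, 9 of the 10 log2 fold changes of Piwil4R264W/R264W testes were negative, with a median of -0.069 against 0.006 over 15463 genes. The median was -0.183 without Piwil4R264W/R264W replicate 1 and 0.045 without Piwil4R264W/R264W replicate 3, and with the round spermatid score as a covariate 5 of the 10 were positive, with a median of -0.009. Of the 10 genes, 0 had an adjusted and 0 an unadjusted p under 0.05 by edgeR, where the shares over all genes were 0% and 2.22%. Syce2, a central element gene, had 30.4, 28.2 and 31.0 CPM in Piwil4R264W/R264W testes, 37.5, 31.2 and 36.7 CPM in Piwil4WT/R264W testes and 34.7, 29.1 and 37.2 CPM in wild-type testes. All 3 Piwil4R264W/R264W testes lay below all 3 Piwil4WT/R264W testes, by a log2 fold change of -0.23 (standard error 0.11, 95% interval -0.49 to 0.025). Of the 3, only replicate 2 lay below the lowest wild-type testis. The adjusted p was 0.948 by edgeR's quasi-likelihood test and between 0.641 and 1 under the alternatives. Trip13 also did not overlap, with 18.5, 18.5 and 15.9 CPM in Piwil4R264W/R264W and 19.0, 19.8 and 19.6 CPM in Piwil4WT/R264W testes (log2 fold change -0.14, 95% interval -0.41 to 0.12, adjusted p = 0.948 by edgeR). For both genes an exact two-sided permutation test gave p = 0.1, the smallest that 3 against 3 testes allow. Over all genes, 7.15% did not overlap in this comparison, and this share stands beside the 2 of 10 genes here. Markers of other cells moved in the same comparison, none past an adjusted p under 0.05. An unadjusted p under 0.05 by edgeR was found for 4 of 16 spermatogonial markers, all lower in Piwil4R264W/R264W testes (log2 fold changes of -0.36 for Dmrt1, -0.34 for Sohlh2, -0.62 for Ret and -1.35 for Nanos3), and for 2 of 10 Leydig markers, both higher (1.09 for Hsd3b6 and 0.93 for Fabp3). Nanos3 was near the floor, with a mean of 0.35 CPM, and did not pass the filter in the other comparisons. Of the spermatogonial list, Etv5 (0.20), Dmrtb1 (0.17), Sohlh1 (0.045) and Gfra1 (0.006) were higher. The summed Leydig markers were at 367 to 523 CPM in Piwil4R264W/R264W and 246 to 352 CPM in Piwil4WT/R264W testes, without overlap. The part of these cells in the values of the 10 genes was not tested.

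Between Piwil4WT/R264W and wild-type testes 8 of the 10 log2 fold changes were positive, from -0.089 for Sycp2 to 0.17 for Syce3, with a median of 0.088 against -0.019 over 15413 genes. By edgeR's test 0 of the 10 genes had an adjusted and 0 an unadjusted p under 0.05, beside 0% and 1.11% of all genes, and in 0 of them did the genotypes not overlap, beside 5.32%. DESeq2 gave no gene of the set an adjusted p under 0.05 in any of the 3 comparisons, and over all genes it gave 2, 6 and 0 genes. The 3 comparisons share testes, so their signs are not independent of each other. With the round spermatid score added to the model as a covariate over all 9 testes, 0 of the 10 genes had an unadjusted p under 0.05 in any comparison, and the largest log2 differences were 0.17, 0.24 and 0.18 in size. This fit differs from the pairwise fit in the number of testes as well as in the score. The width of the pairwise 95% interval over that of this fit ran from 1.06 (Syce3) to 2.18 (Hormad1) between Piwil4R264W/R264W and wild-type testes, from 0.923 (Trip13) to 2 (Sycp1) between Piwil4R264W/R264W and Piwil4WT/R264W testes and from 1.33 to 1.77 in the third comparison.

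**Figure D2:**
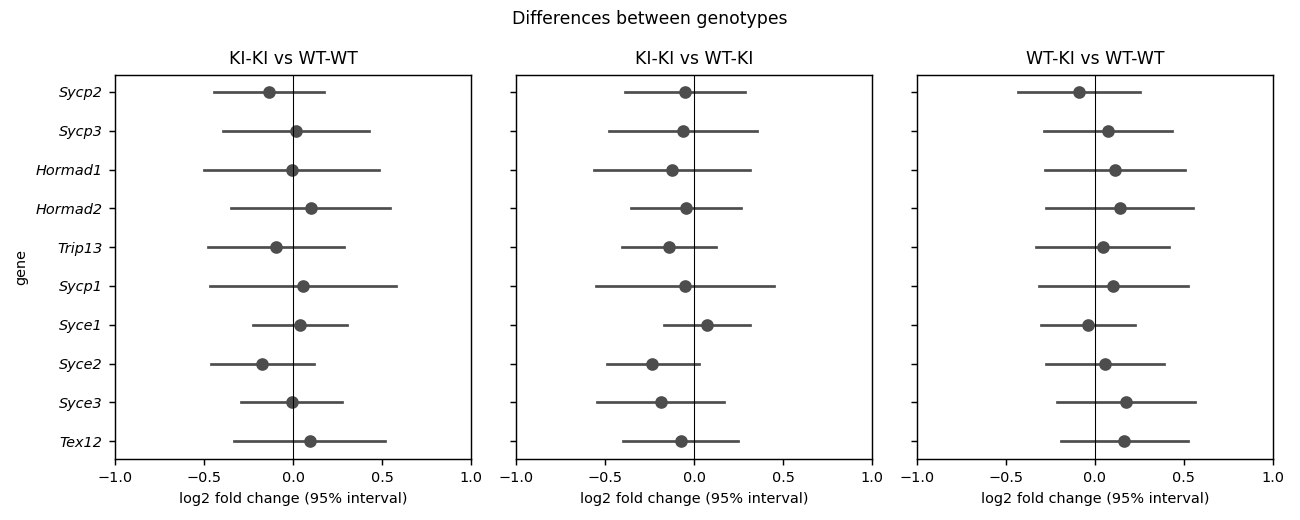
Log2 fold change (x axis) of the 10 genes (y axis) between genotypes by edgeR, 1 panel per comparison with the first-named genotype over the other; points are estimates and lines the 95% intervals (3 testes per genotype). Each interval includes 0, and estimates lie between -0.234 and 0.174.

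Along the round spermatid score, 5 of the 10 genes fell and 1 rose. Of the 10, the genes that fell were those of the axis and of the transverse filament, Sycp1, Sycp2, Sycp3, Hormad1 and Hormad2. The one that rose was the central element gene Syce1. Slopes of Syce2, Syce3, Tex12 and Trip13 did not pass the test, though the slope of the central element gene Tex12, -0.064, was close to the -0.072 of Sycp2. Outside the 10, the central element gene 4930447C04Rik fell and the axis gene Rec8 rose, as given below. Slopes were fitted by edgeR over the 9 testes with genotype in the model, and are log2 changes in CPM per unit of score, adjusted over 15771 genes. Over all genes 8.22% fell and 17.4% rose at an adjusted p under 0.05, 25.7% in both directions together, and the median slope was -0.068 over the 10 genes and -0.012 over all genes.

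Sycp1 had the steepest slope of the set, at -0.123 (standard error 0.029, 95% interval -0.185 to -0.061, adjusted p = 0.00763 by edgeR), so that the fitted level fell by 34.2% over the range of the score. From the testis with the lowest score to that with the highest, its level was 753, 754, 795, 562, 716, 675, 544, 472 and 554 CPM. The 3 testes with the lowest scores held the 3 highest values, and those with the highest scores the 3 lowest. Within each genotype it fell in the order of the score, from 754 over 562 to 554 CPM in wild-type, from 753 over 716 to 544 CPM in Piwil4WT/R264W and from 795 over 675 to 472 CPM in Piwil4R264W/R264W testes.

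Hormad1 fell with a slope of -0.116 (standard error 0.026, adjusted p = 0.00577 by edgeR), and its fitted level fell by 32.7%. In the order of the score it had 364, 363, 345, 268, 327, 320, 276, 221 and 261 CPM, and the order was kept within each of the 3 genotypes. The slope of Hormad2 was -0.088 (standard error 0.028, adjusted p = 0.0380 by edgeR), and it went from 34.1 over 24.3 to 23.3 CPM in wild-type, from 31.8 over 30.7 to 27.7 CPM in Piwil4WT/R264W and from 31.9 over 30.7 to 24.7 CPM in Piwil4R264W/R264W testes. Thus both HORMA genes fell in score order in all 3 genotypes. Trip13, which encodes the ATPase that acts on their proteins, had a slope of -0.020 (95% interval -0.090 to 0.050, adjusted p = 0.679 by edgeR) and between 15.3 and 21.6 CPM.

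Of the lateral element genes, Sycp3 had a slope of -0.102 (standard error 0.024, adjusted p = 0.00785 by edgeR), and its fitted level fell by 29.4%. Sycp2 had a slope of -0.072 (standard error 0.022, adjusted p = 0.0307 by edgeR), and its fitted level fell by 21.8%. In the order of the score Sycp3 had 424, 409, 417, 323, 382, 370, 309, 279 and 324 CPM, with the 3 highest values again at the 3 lowest scores. In wild-type testes its middle and last values, 323 and 324 CPM, were nearly alike. Sycp2 kept the order within Piwil4WT/R264W testes alone, at 886, 734 and 655 CPM.

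Syce1, whose product links the transverse filaments to the central element, rose with a slope of 0.062 (standard error 0.017, 95% interval 0.025 to 0.1, adjusted p = 0.0201 by edgeR), a fitted rise of 23.6%. It had 296, 302, 318, 328, 354, 331, 328, 379 and 372 CPM in the order of the score, with the 2 highest values at the 2 highest scores. It rose in order in wild-type testes, from 302 over 328 to 372 CPM, and in Piwil4R264W/R264W testes, from 318 over 331 to 379 CPM, and in Piwil4WT/R264W testes it went from 296 over 354 to 328 CPM. The rise depended on the scaling. With libraries scaled by total count alone the slope was 0.035 (adjusted p = 0.0954 by edgeR), and on the log2(FPKM + 1) scale it was 0.040 (adjusted p = 0.0798 by limma), where the median slope of all genes was -0.039 with total counts and -0.012 with TMM. It stayed positive in all 20 alternatives.

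The other central element genes did not pass. Syce3 had a slope of 0.049 (95% interval -0.018 to 0.115), Syce2 of 0.001 (-0.060 to 0.061) and Tex12 of -0.064 (-0.129 to 0.000), with adjusted p of 0.261, 0.986 and 0.131 by edgeR. The lower bounds of Syce2 and Syce3 lay above the slopes of the 5 falling genes, which is not a test of that difference. Tex12 had 37.0, 26.4 and 29.2 CPM in wild-type, 36.7, 33.0 and 34.4 CPM in Piwil4WT/R264W and 37.5, 34.1 and 27.2 CPM in Piwil4R264W/R264W testes, each from the lowest to the highest score. It passed with total-count scaling (slope -0.091, adjusted p = 0.0387 by edgeR) and with limma on both FPKM scales. A squared term in the score passed an unadjusted threshold of 0.05 for Syce2 alone among the 10 genes (adjusted p = 0.824 by edgeR) and for 5.88% of all genes.

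**Figure D3:**
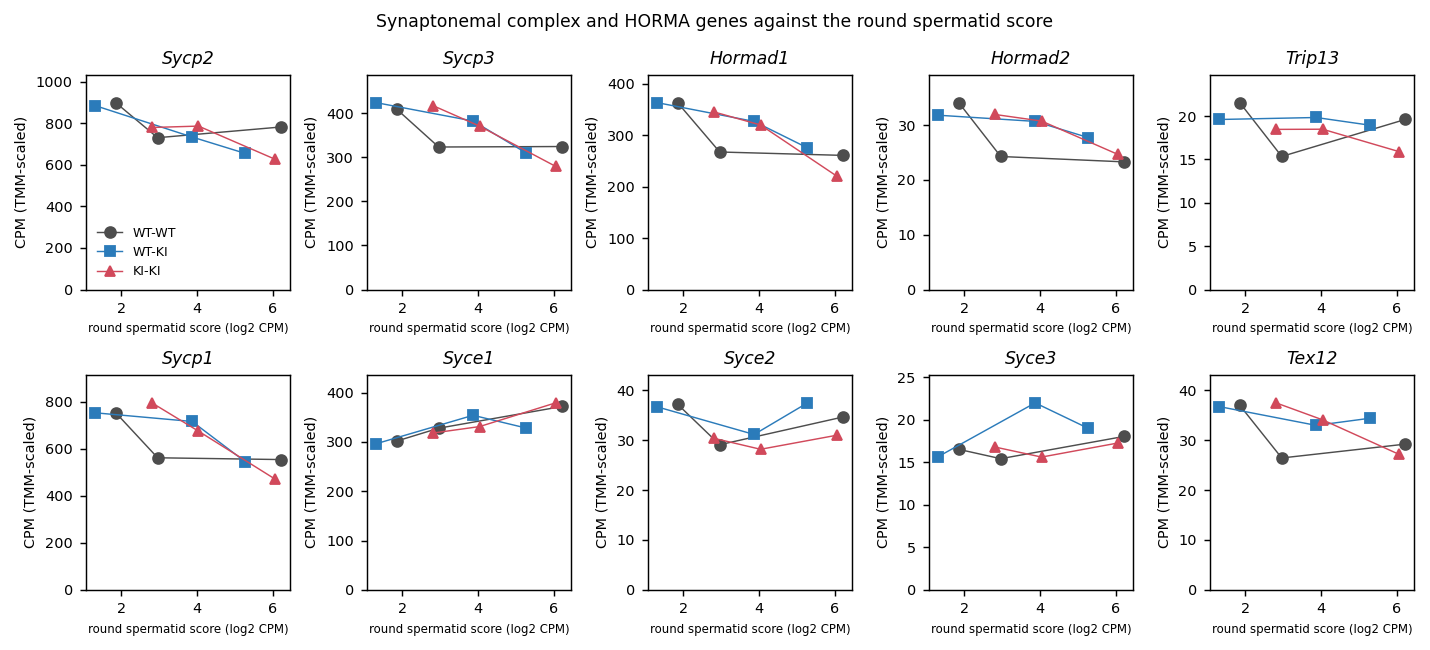
TMM-scaled CPM of the 10 genes (y axis, from 0) against the round spermatid score (x axis, mean log2 CPM of 20 genes); points are testes and lines join the 3 testes of a genotype. Sycp1, Hormad1 and Hormad2 go down from left to right in each genotype, while Syce1 goes from 296 CPM at the lowest score to 372 CPM at the highest.

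The calls of Sycp2, Hormad2 and Syce1 were lost when certain single testes were left out, while their slopes kept their sign. In the brackets that follow, the slope comes first and the adjusted p after it. With each testis left out in turn, Sycp1, Sycp3 and Hormad1 passed in all 9 fits. With a score of 14 pachytene genes in place of the round spermatid genes, rescaled to the same SD so that slopes compare, Sycp1 (slope -0.103, adjusted p = 0.0838 by edgeR), Sycp2 (-0.067, 0.0792) and Sycp3 (-0.087, 0.0713) no longer passed, while Hormad1 passed in each of 20 alternatives. Sycp2 no longer passed without wild-type replicate 3 (slope -0.070, adjusted p = 0.106 by edgeR), Piwil4WT/R264W replicate 3 (-0.062, 0.142), Piwil4R264W/R264W replicate 1 (-0.075, 0.0647) or Piwil4R264W/R264W replicate 3 (-0.061, 0.125). Hormad2 no longer passed without wild-type replicate 1 (-0.091, 0.154) or 3 (-0.061, 0.194), nor without Piwil4R264W/R264W replicate 1 (-0.089, 0.0802), 2 (-0.087, 0.0594) or 3 (-0.078, 0.135). Syce1 no longer passed without wild-type replicate 1 (0.061, 0.112) or 3 (0.056, 0.0971), Piwil4WT/R264W replicate 3 (0.057, 0.108), Piwil4R264W/R264W replicate 1 (0.059, 0.0663) or 3 (0.056, 0.0902).

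Because counts of 2 genes in the same library need no scaling between libraries, ratios were formed within each testis. Sycp1 had 2.54, 2.5, 2.5, 1.71, 2.02, 2.04, 1.66, 1.25 and 1.49 counts for each count of Syce1, from the lowest to the highest score. The ratio of Hormad1 to Syce1 counts ran from 1.23 at the lowest score to 0.701 at the highest, with 0.582 as its lowest value. The ratio of Sycp1 to Hormad1 counts stayed between 1.98 and 2.30. This pair of genes was chosen after its slopes were seen, and the ratios are given as a description. They show unequal change of the genes and not which of them moved.

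Over the 9 testes, the log2 CPM of 32 of the 45 gene pairs correlated positively, with Pearson r from -0.803 to 0.991, and these values are descriptive because every pair shares libraries and the wave. The closest pair was Sycp1 with Sycp3 (r = 0.991, n = 9), and Hormad1 was closest to Sycp3 (r = 0.977, n = 9). Sycp2 was closest to Sycp3 (r = 0.846, n = 9), and Tex12 and Hormad2 to each other (r = 0.910, n = 9). Trip13 was closest to Tex12 (r = 0.763, n = 9), Syce2 to Trip13 (r = 0.626, n = 9) and Syce1 and Syce3 to each other (r = 0.481, n = 9). Syce1 had r = -0.708 with Sycp1 and -0.803 with Hormad1 (n = 9). Among 14465 other genes with a mean of at least 1 CPM, the 10 most like the mean standardised profile of the 10 genes were Zfp964 (r = 0.979, n = 9), mt-Co3, Tex30, Morc1, Psma8, Rsl1d1, Gnl3, AI597479, Nop58 and Paip2 (r = 0.931, n = 9).

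Genes that work beside the synaptonemal complex were read on the same slope, where 8.22% of all genes fell and 17.4% rose, given first in brackets with the adjusted p after it. Of 12 tested partners of axis and synapsis, 2 fell, 2 rose and 8 did not pass, with a median slope of 0.011. 4930447C04Rik (Six6os1), a central element gene, fell (slope -0.118, adjusted p = 0.00611 by edgeR), as did Fkbp6 (-0.075, 0.0110), which encodes an immunophilin. Rec8, a meiotic cohesin subunit of the axis, rose (0.333, adjusted p = 7.5e-07 by edgeR), and so did Hspa2 (0.074, 0.0167), a chaperone gene of spermatocytes. Of 14 tested partners of the HORMA proteins and of TRIP13, 3 fell and 11 did not pass. Mei4, a gene of the machinery that makes meiotic double-strand breaks, had a slope of -0.215 (adjusted p = 0.0387 by edgeR) at a mean of 1.69 CPM. Mad2l1, the spindle checkpoint HORMA gene, fell with -0.106 (0.00311) and Topbp1, which acts on unsynapsed chromatin, with -0.069 (0.0121).

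Of 23 tested recombination genes, 6 fell, 0 rose and 17 did not pass, with a median slope of -0.057. The steepest were Rad51ap2 (slope -0.183, adjusted p = 0.00180 by edgeR), the meiotic recombinase gene Dmc1 (-0.143, 0.0234) and Meiob (-0.121, 0.00155), which encodes a single-strand DNA binding protein of meiosis. Of 7 genes of telomere attachment to the nuclear envelope, 0 passed, with a median slope of -0.029. Of 8 genes on the list named for meiotic entry, 3 fell, 1 rose and 4 did not pass. The RNA-binding protein gene Dazl fell (slope -0.138, adjusted p = 0.000214 by edgeR), as did the helicase gene Ythdc2 (-0.086, 0.0196). Mybl1 (-0.063, 0.0318), the A-MYB transcription factor gene, also fell, while Rec8, also on that list, is described above. In these 5 lists 1 gene, Rec114, had an unadjusted p under 0.05 between genotypes by edgeR, in Piwil4WT/R264W against wild-type testes, where 1.11% of all genes did, and 0 had an adjusted p under 0.05.

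Of 14 pachytene marker genes tested, 9 rose, 0 fell and 5 did not pass, with a median slope of 0.068. Beside them, 17.4% of all genes rose and 8.22% fell. Slopes of the list ran from -0.044 for Pou5f2 to 0.224 for Pgk2, and Piwil1 had -0.004. The summed level of the list was 8440 to 11500 CPM over the 9 testes. How much of this RNA came from spermatocytes was not tested, so the list does not give the share of these cells. The round spermatid genes rose by construction. Beside 8.22% and 17.4% of all genes, of 15 tested spermatogonial markers 3 fell and 2 rose, with a median slope of -0.071. Summed levels were 854 to 938 CPM in wild-type, 844 to 923 CPM in Piwil4WT/R264W and 835 to 976 CPM in Piwil4R264W/R264W testes. Dmrtb1, with a mean of 562 CPM, made up most of these sums and rose (slope 0.098, adjusted p = 0.00889 by edgeR). The mean log2 CPM of the list was 4.24 at the lowest score and 3.65 at the highest. Of 15 Sertoli markers 3 fell and 1 rose (1940 to 2550, 2400 to 2860 and 2220 to 2480 CPM), and of 10 Leydig markers 2 rose (240 to 502, 246 to 352 and 367 to 523 CPM). Of 3 tested epididymal markers 2 rose, Cst8 (slope 0.975, mean 7.3 CPM) and Ros1 (slope 0.947), which was near the floor with a mean of 0.56 CPM. Crisp1, with a mean of 5.63 CPM, had a slope of -0.89 and did not pass (adjusted p = 0.266 by edgeR). Summed over its 9 genes the list was at 1.59 to 24.6, 1.42 to 13.8 and 5.67 to 49.4 CPM, and 3 of them were at 0 in every testis. The part of these cells in the slopes was not tested.

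**Figure D4:**
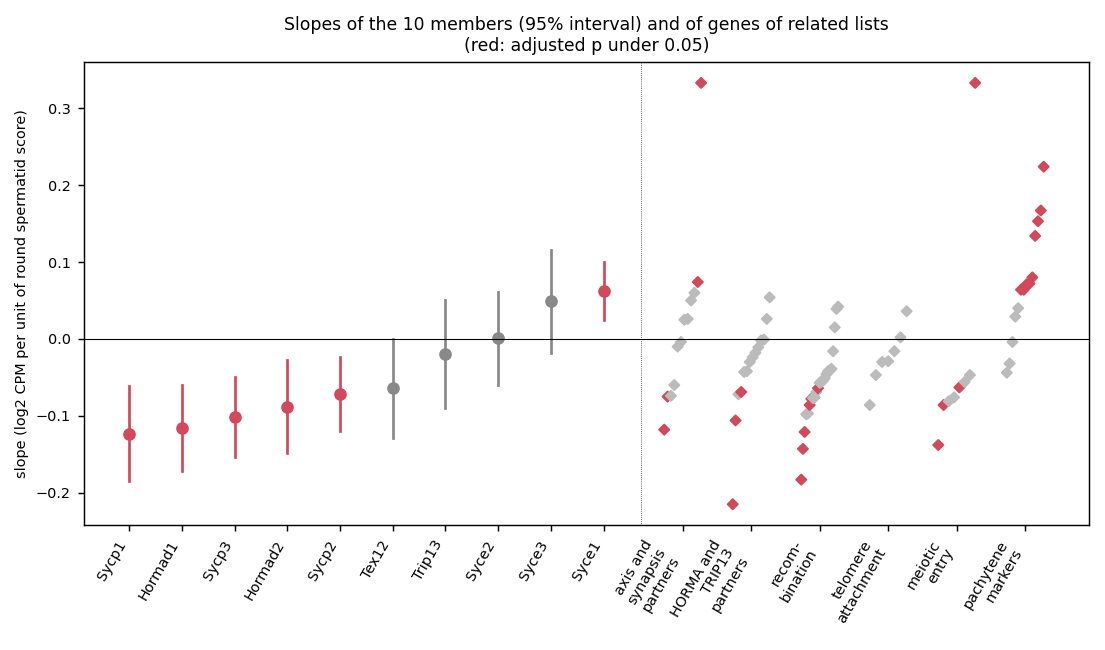
Slope on the round spermatid score (y axis, log2 CPM per unit) of the 10 genes with 95% intervals (circles and lines) and of the genes of 6 related lists (diamonds), over 9 testes; red marks an adjusted p under 0.05. Slopes of the 10 genes run from -0.123 for Sycp1 to 0.062 for Syce1, and the pachytene markers that passed all lie above 0.

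The promoters of the 10 genes were read for short motifs as a description, and a link between motifs and slopes was not tested. In the RefSeq promoter windows of GRCm38.p6 (250 bases before to 50 after each start), which held all 10 genes, the E box CACGTG was present in 5 of the 10, Sycp1, Sycp3, Hormad1, Syce2 and Tex12, and in 8.09% of 27025 genes. For Syce2 it lies only in the window of a second RefSeq start, whose bases were not found in a GENCODE transcript, and not in that of the first. The 3 genes with the steepest falls among these are shown together with Syce1, which rose and holds no CACGTG. Each sequence gives the 250 bases before the start, 5′ to 3′ on the gene's strand, with CACGTG in capitals: chr3:102936101-102936350 (minus strand) for Sycp1, chr10:88459337-88459586 (plus strand) for Sycp3, chr3:95559427-95559676 (plus strand) for Hormad1 and chr7:140787855-140788104 (minus strand) for Syce1.
Sycp1: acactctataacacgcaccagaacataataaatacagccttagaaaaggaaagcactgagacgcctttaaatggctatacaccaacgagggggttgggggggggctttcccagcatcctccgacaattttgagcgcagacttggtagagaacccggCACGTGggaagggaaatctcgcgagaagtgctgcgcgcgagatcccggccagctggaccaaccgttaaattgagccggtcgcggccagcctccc
Sycp3: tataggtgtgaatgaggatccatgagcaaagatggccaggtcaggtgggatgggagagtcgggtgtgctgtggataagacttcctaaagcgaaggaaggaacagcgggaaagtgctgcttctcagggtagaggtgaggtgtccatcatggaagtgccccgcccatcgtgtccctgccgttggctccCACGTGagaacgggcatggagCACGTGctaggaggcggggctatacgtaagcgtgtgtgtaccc
Hormad1: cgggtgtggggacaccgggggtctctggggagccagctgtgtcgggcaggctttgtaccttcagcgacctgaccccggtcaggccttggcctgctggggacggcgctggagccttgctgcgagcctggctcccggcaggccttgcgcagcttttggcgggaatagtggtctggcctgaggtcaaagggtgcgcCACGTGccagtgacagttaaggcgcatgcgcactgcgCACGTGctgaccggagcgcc
Syce1: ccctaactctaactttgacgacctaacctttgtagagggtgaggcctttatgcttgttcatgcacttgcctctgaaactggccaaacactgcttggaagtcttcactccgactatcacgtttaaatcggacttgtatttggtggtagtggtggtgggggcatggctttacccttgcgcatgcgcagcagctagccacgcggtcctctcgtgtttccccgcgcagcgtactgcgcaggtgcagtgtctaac

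Sycp1 holds 1 copy, beginning 94 bases before the start, Sycp3 holds 2 (64 and 43 bases before) and Hormad1 holds 2 (57 and 20 bases before). Of the other falling members, Sycp2 and Hormad2 hold none in their windows. Syce2 and Tex12 hold CACGTG and did not pass on the slope. On both strands, and with none of the motifs contained in another, the MYB core AACTG was in 5 of the 10 genes (Sycp2, Syce1, Syce2, Syce3 and Hormad1) and in 48.2% of all genes, the STRA8 and MEIOSIN motif CNCCTCAG in 4 (Sycp1, Syce2, Tex12 and Hormad2) and in 9.12% of all genes, and the E2F motif GGCGGGAA in 3 (Syce2, Tex12 and Hormad1) and in 2.52% of all genes. For Syce2, CNCCTCAG and GGCGGGAA also lie only in the window of the second start. Trip13 holds none of the 4. A match is a description of these letters and not of binding. Of these motifs, Syce1 holds only AACTG.

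In the GENCODE annotation of GRCm38, 5 of the genes overlap a gene on the opposite strand: Sycp3 (chr10:88459569-88473236, plus strand) overlaps Chpt1, Syce2 (chr8:84872111-84888221, plus strand) overlaps Gcdh, Tex12 (chr9:50556819-50561325, minus strand) overlaps Il18, and Sycp1 (chr3:102818499-102936100, minus strand) and Syce1 (chr7:140777229-140787852, minus strand) overlap predicted genes. Trip13 (chr13:73911347-73937784, minus strand) overlaps the predicted gene Gm25197 on its own strand. These overlaps are of whole gene spans, and whether exons overlap was not examined. Whether reads were counted by strand is not given in the sources used here. The part of such partners in the counts of these genes was not tested, and it would concern only the shared stretches.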

How the data were processed

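RNA-seq (paired-end mRNA libraries) covered 9 whole testes, 3 per genotype, grouped from the labels. The authors filtered reads with fastp 0.18.0 and assembled the mapped reads with StringTie 1.3.1, per the submitters' notes on the mm39 build; the aligner is not given in the sources used here. For each gene and testis the authors deposited FPKM and an estimated count, and 89.2% of the deposited estimated counts are whole. Here they were rounded. With edgeR 4.0.16 (R 4.3.3), genes were filtered by filterByExpr and scaled by TMM, and 2 genotypes at a time were fitted with the quasi-likelihood test (two-sided, Benjamini-Hochberg over all genes). The slope test used all 9 testes with genotype and the score, and a squared term was fitted with the score alone. The score uses a prior count of 1. Fits were tested on simulated data.

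Alternatives were DESeq2 1.42.0, other scalings, no filter, limma 3.58.1 on log2(FPKM + 1) and log2(FPKM + 0.1) for a mean FPKM of at least 0.5, all 9 testes, the replicate number as a block, a pachytene score (14 genes), a standardised score, and each testis left out. Named partners are the 3 steepest slopes in each direction per list. The members were chosen without values of these libraries, and the lists with earlier results of these data known. Motifs were searched in RefSeq promoters. Coordinates are those of GRCm38, because no mm39 annotation was used here; 1 gene without a symbol was named from the GENCODE gene names. Replicates are separate samples by label, and p-values measure only the spread between them. No identical libraries were found.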

Additional observations from a re-analysis of the deposited data

How the results depend on the processing

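The genotype comparisons stayed without a member at an adjusted p under 0.05 in all 150 alternative values each, with smallest adjusted p of 0.734, 0.641 and 0.897. The slopes of Sycp1, Sycp3 and Hormad1 passed in 19, 19 and 20 of 20 alternatives, those of Sycp2, Hormad2 and Syce1 in 13, 13 and 11. Trip13, with 278 to 454 counts per library, carries more counting error than Sycp1, with 8257 to 17789. Only 3 testes per genotype limit what can be detected. The causes of the changes below were not tested.

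Counts of genes past an unadjusted p under 0.05 were 196, 343 and 171 for Piwil4R264W/R264W against wild-type, Piwil4R264W/R264W against Piwil4WT/R264W and Piwil4WT/R264W against wild-type testes. The first was 127 with total counts only and 406 with the score as covariate, and ran from 86 to 1164 with 1 testis left out. The second ran from 163 to 1145 with 1 testis left out. The third was 108 with DESeq2, 290 with all 9 testes and 569 with the score as covariate, and ran from 83 to 244 with 1 testis left out. DESeq2 gave 2 genes at an adjusted p under 0.05 in the first comparison and 6 in the second, where edgeR gave 0. On the slope, 4046 genes passed, 1030 without the 2 testes farthest from the median score (Piwil4WT/R264W replicate 3 and wild-type replicate 1), and from 2010 to 6137 with 1 testis left out. Without those 2 testes the median slope of the members was -0.132 in place of -0.068, Sycp2 (-0.120, adjusted p = 0.114), Hormad2 (-0.146, 0.196) and Syce1 (0.060, 0.468) no longer passed by edgeR, and Syce3 had -0.016.

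Same-numbered replicates did not deviate together throughout: the correlations of their deviations ran from -0.73 to 0.71 for number 1, -0.15 to 0.07 for number 2 and -0.73 to 0.78 for number 3, so the numbers were not taken to pair the testes. From number 1 to 3 the score fell in wild-type (6.22, 2.96, 1.85) and Piwil4WT/R264W testes (5.28, 3.87, 1.3). It rose in Piwil4R264W/R264W testes (2.81, 4.04, 6.05). Within a genotype, whatever the numbers stand for cannot be told apart from the score. With the replicate number as a block, 52, 131 and 181 genes had an unadjusted p under 0.05 between genotypes and 3265 passed on the slope, where Sycp2 (-0.076, adjusted p = 0.0817) and Hormad2 (-0.091, 0.0879) did not by edgeR and Syce2 had -0.001.

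Members close to 0 changed sign. Syce2 had slopes of -0.029 and -0.028 with limma on log2(FPKM + 0.1) and log2(FPKM + 1), 0.000 without a filter, -0.011 without a genotype term, -0.015 with the pachytene score, -0.026 with total counts only and -0.002 with the standardised score. Hormad1 had a log2 fold change of 0.003 with DESeq2, 0.003 with its size factors and 0.053 with the score as covariate in the first comparison, and with that covariate Sycp1, Sycp2, Sycp3 and Hormad2 had 0.034, 0.012, 0.015 and 0.020 in the second. Syce1 had 0.004 in the third with total counts only. With 1 testis left out, log2 fold changes in the first comparison ran from -0.116 to 0.237 (Sycp1), -0.112 to 0.160 (Sycp3), -0.042 to 0.123 (Syce1), -0.051 to 0.051 (Syce3), -0.007 to 0.249 (Tex12), -0.132 to 0.166 (Hormad1), -0.003 to 0.297 (Hormad2) and -0.211 to 0.018 (Trip13). In the second they ran from -0.223 to 0.131 (Sycp1), -0.139 to 0.078 (Sycp2), -0.190 to 0.083 (Sycp3), -0.007 to 0.135 (Syce1), -0.176 to 0.044 (Tex12), -0.248 to 0.047 (Hormad1) and -0.114 to 0.060 (Hormad2). In the third they ran from -0.219 to 0.007 (Sycp2), -0.034 to 0.197 (Sycp3), -0.105 to 0.050 (Syce1), -0.009 to 0.152 (Syce2) and -0.056 to 0.152 (Trip13). Slopes ran from -0.015 to 0.022 (Syce2) and -0.051 to 0.005 (Trip13), and squared terms from -0.018 to 0.002 (Sycp3), -0.005 to 0.004 (Syce1), -0.032 to 0.007 (Syce3) and -0.019 to 0.004 (Tex12).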
